A study of Mus musculus with 18 samples.

Results

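Germ cell genes of the Tudor and PIWI-interacting RNA (piRNA) pathway were followed in whole mouse ovaries, 10 in all: Ddx4, Tdrd1, Tdrd5, Tdrd6, Tdrd7, Tdrd9, Tdrkh, Mael, Piwil2 and Mov10l1. They were picked by name, with results for these same libraries already known, and make up 10 of the 55416 genes in the deposited tables. Since the counts of all 3 groups were in view when the genes were picked, their levels and fold changes are given as a description, with no p-value for any single one of them. The libraries came from 18 female wild-type Balb/c mice, 1 ovary library per mouse and 6 mice per group. OC+SM mice were 40 weeks old and were given the herbal formula Samul-tang orally, 2.5 g per kg. OC mice, also 40 weeks old, and YC mice, 8 weeks old, received distilled water. Dosing was repeated 5 times a week for 4 weeks. All 3 groups were then superovulated with 5 IU of the follicle-stimulating hormone substitute PMSG, followed after 48 hours by 5 IU of hCG, which acts as the ovulatory signal. Ovaries were collected 16 hours after hCG, so every value describes a stimulated, recently ovulated ovary and none an unstimulated one.

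The piRNA pathway guards the genome of germ cells. PIWI proteins carry small RNAs that pair with transposon transcripts, and Tudor domain proteins bind methylated arginines on PIWI proteins and gather the machinery in granules next to mitochondria, called nuage. Most of what is known of these genes in mice comes from the male germ line: males without Piwil2 or Mov10l1 are sterile, whereas females without either gene are fertile. In the ovary after birth the germ cells are oocytes, and some Tudor genes are also active outside germ cells.

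The start regions of the genes that the results turn on are shown because their transcripts did not all move alike, so that sequence and level can be set side by side. Promoter windows, from 250 bases before to 50 after a transcript start, came from RefSeq on GRCm38.p6, an older build than the GRCm39 of the counts, and were matched by symbol. Of the 10 genes, 8 had at least 1 window and 12 windows were found in all. Ddx4 is on chromosome 13 (chr13:112652261-112652560, minus strand) and Tdrd1 on chromosome 19 (chr19:56825959-56826258, plus strand, 1 of 3 windows). Tdrd5 is on chromosome 1 (chr1:156303299-156303598, minus strand) and Tdrkh on chromosome 3 (chr3:94412994-94413293, plus strand). Capitals mark CACGTG, the E-box bound by MAX-containing factors, which in mouse embryonic stem cells help to keep germ cell genes silent.
Ddx4: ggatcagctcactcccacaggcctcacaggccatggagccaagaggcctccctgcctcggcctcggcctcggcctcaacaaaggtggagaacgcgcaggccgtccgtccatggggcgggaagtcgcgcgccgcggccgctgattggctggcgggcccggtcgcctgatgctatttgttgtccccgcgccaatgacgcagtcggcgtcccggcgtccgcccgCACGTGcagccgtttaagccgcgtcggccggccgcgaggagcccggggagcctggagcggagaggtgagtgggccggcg
Tdrd1: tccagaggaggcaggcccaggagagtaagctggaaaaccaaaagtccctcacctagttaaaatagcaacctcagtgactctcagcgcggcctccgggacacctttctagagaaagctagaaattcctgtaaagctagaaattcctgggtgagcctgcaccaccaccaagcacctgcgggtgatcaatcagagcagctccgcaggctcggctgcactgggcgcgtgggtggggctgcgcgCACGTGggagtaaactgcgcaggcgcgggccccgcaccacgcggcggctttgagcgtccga
Tdrd5: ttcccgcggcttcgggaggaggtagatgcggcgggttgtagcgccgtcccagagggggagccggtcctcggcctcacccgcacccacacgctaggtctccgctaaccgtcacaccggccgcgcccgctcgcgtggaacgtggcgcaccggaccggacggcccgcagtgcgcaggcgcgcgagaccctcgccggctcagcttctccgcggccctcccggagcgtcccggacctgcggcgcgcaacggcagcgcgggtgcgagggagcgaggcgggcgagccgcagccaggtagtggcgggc
Tdrkh: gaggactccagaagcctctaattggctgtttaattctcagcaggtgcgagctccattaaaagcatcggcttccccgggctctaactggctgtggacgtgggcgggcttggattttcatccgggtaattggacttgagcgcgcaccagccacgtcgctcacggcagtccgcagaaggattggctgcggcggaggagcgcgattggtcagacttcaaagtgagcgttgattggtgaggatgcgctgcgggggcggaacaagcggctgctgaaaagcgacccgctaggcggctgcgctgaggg
The Ddx4 match was centred 26 bases before the start and the Tdrd1 match 8 bases before it. CACGTG reads the same on both strands, so 1 search covered both, and the motif was chosen after the sequences had been seen. Windows of Ddx4, Tdrd1, Tdrd9, Mael and Mov10l1 held it, 5 of 8 genes, whereas no window of Tdrd5, Tdrd7 or Tdrkh did. Over all RefSeq promoter windows, 2349 of 32851 held the motif, or 7.15%. By gene, the share was 8.09% of 27025 genes, 11.4% of the 11336 tested genes with a window, 5 of 19 other piRNA pathway genes and 2 of 11 oocyte marker genes. The windows of the 8 genes held a median of 24.5 CG dinucleotides, against 18 in those of the other piRNA pathway genes, 19 in windows of all tested genes, 8 in the oocyte marker windows and 7 in all windows. A match is only a string of letters in this window, and none was tested for binding.

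Sequencing depth set what could be seen. Libraries were made from transcript 3' ends, and totals ran from 14200654 to 20354213 expected counts in OC+SM, from 11612229 to 13428410 in OC and from 9049175 to 14147370 in YC. OC+SM libraries were deeper than OC libraries (17242386 ± 2047815 against 12485168 ± 713990 counts, SD, n = 6; two-sided exact permutation p = 0.00216, the smallest these 924 regroupings allow). A preparation batch that coincides with treatment cannot be told apart from it. A single count stood for 0.046 to 0.107 CPM, that is, counts scaled to a common library total. The tissue matched its label: steroidogenic markers such as Cyp11a1 summed to between 9205 and 16780 CPM in every library. Spermatid genes (Acrv1, Prm1, Prm2, Tnp1, Tnp2), which would mark male germ cells, summed to at most 0.172 CPM, and Tnp1 and Tnp2 had no count at all. Libraries YC 3 and OC+SM 6 had the lowest mean correlation with their own groups, 0.964 and 0.963, and the counts of calls without both are given in the closing section.

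Of the 10 genes, 5 were abundant enough to enter the edgeR fit over 16959 genes: Ddx4, Tdrd1, Tdrd5, Tdrd7 and Tdrkh (ENSMUSG00000021758, ENSMUSG00000025081, ENSMUSG00000060985, ENSMUSG00000035517 and ENSMUSG00000041912). They did not move as 1 group. Ddx4, Tdrd1 and Tdrd5 were lower in both 40-week groups than in YC ovaries, while Tdrd7 and Tdrkh were not lower in either. The other 5 genes had too few counts to be fitted. Whole ovaries were profiled, so the cells that gave the reads are not known. Fewer oocytes and less RNA per oocyte cannot be told apart either.

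**Figure D1:**
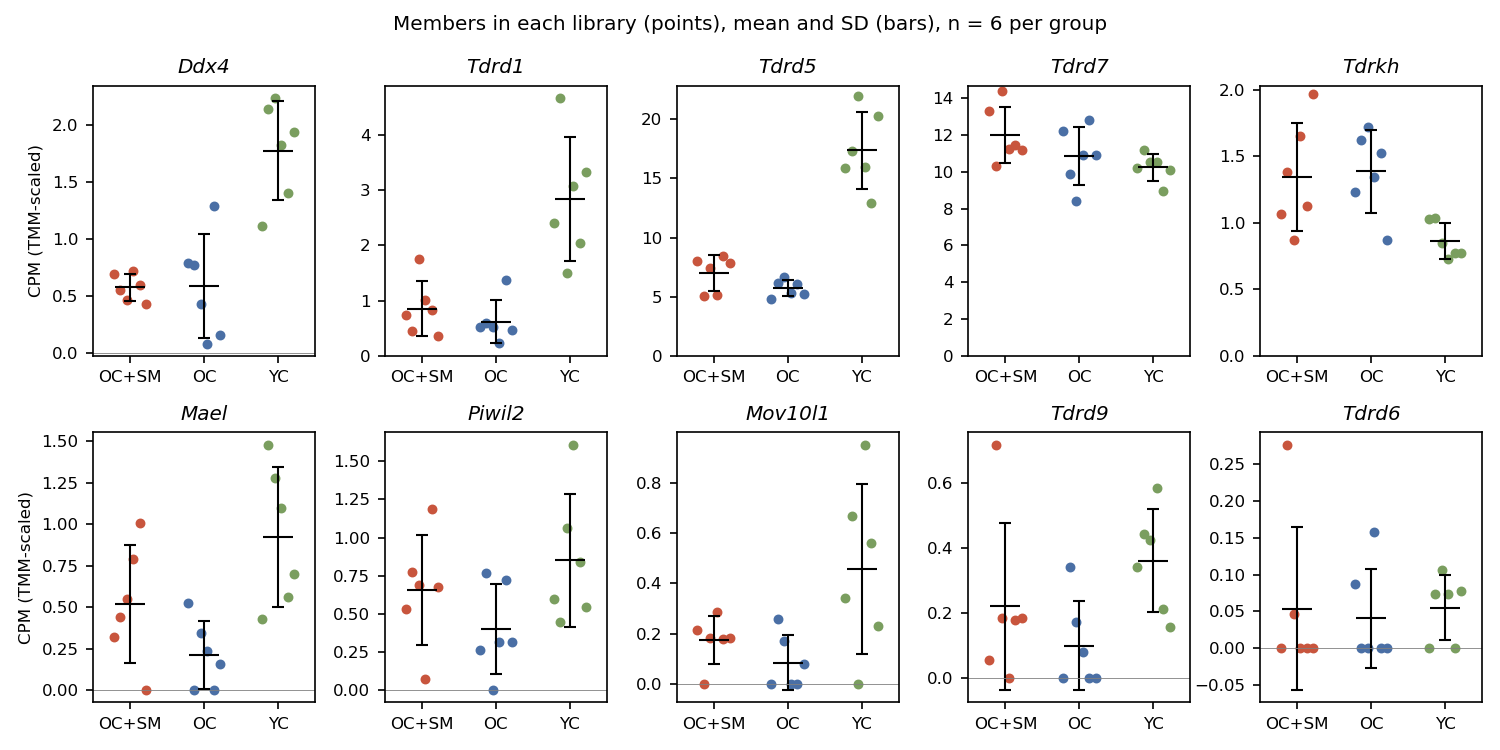
Levels of the 10 genes in each of 18 libraries (y axis, TMM-scaled CPM, a different scale in each panel), with OC+SM, OC and YC from left to right. Points are libraries and bars are the mean and SD of 6. Tdrd5 had no OC or OC+SM library above 8.48 CPM and no YC library below 12.9 CPM, while the 3 groups overlapped for Tdrd7.

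Ddx4 encodes the vasa RNA helicase, the classic marker of germ cells. Its lowest, median and highest levels were 0.431, 0.573 and 0.719 CPM in OC+SM ovaries, 0.0790, 0.601 and 1.29 CPM in OC ovaries and 1.11, 1.88 and 2.24 CPM in YC ovaries. All OC+SM libraries lay below all YC libraries, and the highest OC library alone reached into the YC range. The log2 fold change was -1.59 ± 0.41 (SE) for OC against YC and -1.62 ± 0.40 for OC+SM against YC. These comparisons share the YC libraries. Counts were small, from 7 to 13 per OC+SM library, 1 to 16 per OC library and 13 to 29 per YC library. OC libraries were the most uneven, with 16 counts in OC 5 and 1 in OC 4.

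Tdrd1 encodes a nuage scaffold that binds PIWI proteins. Levels ran from 0.369 through a median of 0.789 to 1.75 CPM in OC+SM, from 0.237 through 0.522 to 1.37 CPM in OC and from 1.49 through 2.73 to 4.66 CPM in YC ovaries. Every OC library was below every YC library, whereas OC+SM 3, with 1.75 CPM, passed the lowest YC library. The fold change was the lowest of the 5 genes fitted for OC against YC, at -2.18 ± 0.40 on the log2 scale, and was -1.71 ± 0.38 for OC+SM against YC.

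Tdrd5, needed in male mouse germ cells for nuage assembly and transposon silencing, had counts high enough for narrow errors. OC+SM libraries had 5.03, 7.61 and 8.48 CPM (lowest, median, highest), OC libraries 4.83, 5.70 and 6.63 CPM and YC libraries 12.9, 16.6 and 21.9 CPM. Neither 40-week group overlapped the YC group. Mean levels were 6.99 ± 1.5 CPM in OC+SM, 5.71 ± 0.688 CPM in OC and 17.4 ± 3.27 CPM in YC ovaries (SD, n = 6). The log2 fold change was -1.60 ± 0.15 for OC against YC and -1.31 ± 0.15 for OC+SM against YC. In the older mouse annotation, a second gene overlaps Tdrd5 on the same strand and another on the opposite strand, and reads from such genes could have been shared in counting.

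Tdrd7 encodes a Tudor protein of germ cell granules that is also made outside the germ line, in the lens among other tissues. It had 10.3, 11.3 and 14.4 CPM in OC+SM (lowest, median, highest), 8.43, 10.9 and 12.8 CPM in OC and 8.98, 10.3 and 11.2 CPM in YC ovaries. The 3 groups overlapped. Its log2 fold change was 0.08 ± 0.11 for OC against YC, with a 95% interval from -0.15 to 0.32, which does not reach the value of Tdrd5. For OC+SM against YC it was 0.23 ± 0.11.

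Tdrkh, which anchors the piRNA trimming machinery to mitochondria, stood on the other side of 0. Levels were 0.874, 1.25 and 1.97 CPM in OC+SM (lowest, median, highest), 0.875, 1.44 and 1.72 CPM in OC and 0.731, 0.814 and 1.04 CPM in YC ovaries. In OC, 5 of 6 libraries lay above the highest YC library, and OC 6 did not. The log2 fold change was 0.68 ± 0.29 for OC against YC and 0.62 ± 0.28 for OC+SM against YC, and neither passed the threshold used for all genes. Counts were only 19 to 32 per library in OC+SM, 11 to 20 in OC and 8 to 14 in YC. Tdrkh overlaps Oaz3 on the opposite strand in the older annotation. No source used here states how strand was treated in counting, so reads of this pair cannot be told apart.

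By the rule used for every gene (edgeR quasi-likelihood test, Benjamini-Hochberg adjusted p under 0.05 over 16959 genes), Ddx4, Tdrd1 and Tdrd5 were past the threshold and lower for OC against YC, where 6.03% of all genes were called lower and 5.25% higher. The same 3 were past it for OC+SM against YC, where 10.9% of all genes were called lower and 11.5% higher. Tdrd1 and Tdrd5 had groups that did not overlap for OC against YC, as did 4.17% of all genes in that direction. Ddx4 and Tdrd5 did so for OC+SM against YC, beside 4.65% of all genes. In the other direction the shares of all genes without overlap were 3.21% and 4.85%. Nothing is read from these counts: the genes were picked with them in view, and a gene that passes the count filter only through the group where it is high had to differ. Of the 3, Ddx4 and Tdrd1 passed that filter only with the YC libraries present. Neither entered the fit of only the 12 OC+SM and OC libraries. Their medians were 7 and 6 counts per library in OC and 23 and 35.5 in YC. Per gene length, on the deposited TPM scale (transcript abundance corrected for length), the median level of Tdrd7 was above that of Tdrd5 in all 3 groups: 22.2 against 2.23 TPM in OC+SM, 20.8 against 1.62 TPM in OC and 20.55 against 4.83 TPM in YC. Tags from 3' ends do not grow in number with length, so a value divided by length understates long transcripts. On the CPM scale the order of the medians was reversed in YC, with 16.6 CPM for Tdrd5 and 10.35 CPM for Tdrd7. In OC+SM and OC the order was the same on both scales.

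**Figure D2:**
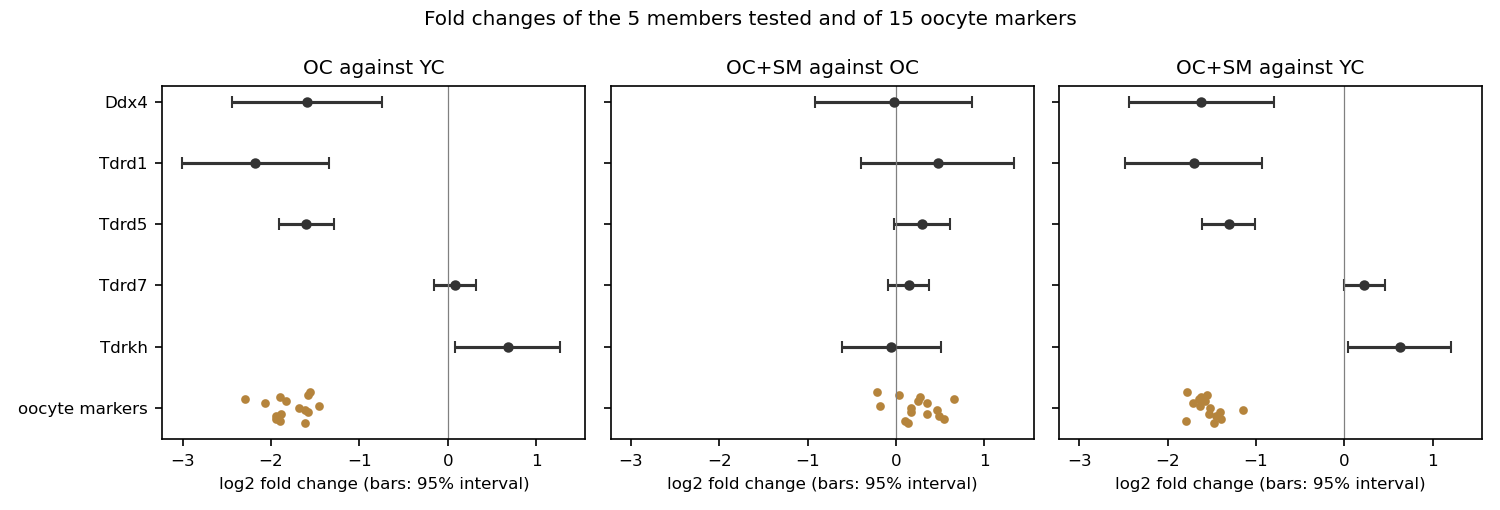
Log2 fold changes (x axis) of the 5 genes fitted, with 95% intervals as bars, and of 15 oocyte markers as small points, in 3 panels for OC against YC, OC+SM against OC and OC+SM against YC. Ddx4, Tdrd1 and Tdrd5 lie among the oocyte markers in the outer panels, Tdrd7 and Tdrkh lie to their right, and all 5 intervals include 0 for OC+SM against OC.

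The 5 genes below the count filter are given by their counts. Counts are not scaled for depth, and the OC+SM libraries were the deepest. Mael, whose product is needed for transposon silencing in mouse male germ cells, had 0 to 17 counts per library in OC+SM, 0 to 6 in OC and 5 to 20 in YC. Its mean level was 0.519 ± 0.355 CPM in OC+SM, 0.211 ± 0.205 CPM in OC and 0.924 ± 0.423 CPM in YC (SD, n = 6), and the groups overlapped. Piwil2, the PIWI protein MILI that cuts transposon RNA, averaged 0.655 ± 0.361 CPM in OC+SM, 0.399 ± 0.295 CPM in OC and 0.850 ± 0.434 CPM in YC. Its ranges overlapped in all 3 groups, from 1 to 20, 0 to 9 and 6 to 22 counts in the same order. Mov10l1, the helicase that feeds precursors into the pathway, had 18 counts summed over 6 OC+SM libraries, 6 over OC and 37 over YC libraries. Tdrd9, a helicase with a Tudor domain that represses LINE-1 elements in male mouse germ cells, had 24, 7 and 27 summed counts in OC+SM, OC and YC. In OC+SM, 13 of its 24 counts came from library OC+SM 2. Tdrd6, a component of the chromatoid body of spermatids, was barely seen, with 6, 3 and 4 counts summed over the OC+SM, OC and YC libraries. At this depth no difference in Tdrd6 was detectable.

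For OC+SM against OC, 0 of the 5 genes fitted passed the threshold (edgeR). None had an unadjusted p under 0.05 in that fit, against 16.9% of all genes. With DESeq2 the count past the adjusted threshold was also 0, but Ddx4 had no adjusted p there. Of all genes, 0.548% were called higher and 0.489% lower in this comparison, and 0.849% had OC+SM libraries wholly above and 0.678% wholly below the OC libraries. All 5 genes overlapped between OC+SM and OC. Ddx4 averaged 0.575 ± 0.118 CPM in OC+SM and 0.586 ± 0.454 CPM in OC ovaries (SD, n = 6), a log2 fold change of -0.03 with a 95% interval from -0.92 to 0.86. Tdrd1 averaged 0.857 ± 0.498 CPM in OC+SM and 0.621 ± 0.386 CPM in OC, with 0.47 (interval -0.39 to 1.34). These wide intervals do not show that treated and untreated ovaries were alike. Tdrd5 came nearest to a difference, at 0.29 with an interval from -0.02 to 0.61. Tdrd7 stood at 0.14 (interval -0.09 to 0.37) and Tdrkh at -0.05 (interval -0.61 to 0.51). For all genes fitted, the median log2 fold change was 0.01. The direction of Ddx4 was not stable: without OC 5, the OC library with the highest level, it was 0.37.

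The 3 lower genes were set beside 16 oocyte markers (Gdf9, Bmp15, Zp1, Zp2, Zp3, Oosp1, Nlrp5, Ooep, Padi6, Figla, Nobox, Sohlh1, Lhx8, Zar1, Npm2, Dppa3), genes for growth factors, egg coat, maternal proteins and oocyte transcription factors. Their summed level ran from 43.5 to 89.1 CPM in OC+SM, from 46.8 to 80.5 CPM in OC and from 152 to 231 CPM in YC ovaries, so that both 40-week groups lay wholly below YC. All 15 markers fitted were called lower for OC against YC, where 6.03% of all genes were called lower. Their values lay between -2.30 (Lhx8) and -1.46 with a median of -1.83, and no marker was without counts in any group. Nobox, Sohlh1 and Lhx8 had medians of 7, 3 and 3.5 counts per library in OC and 34.5, 23.5 and 15 in YC. The caveat on genes that pass the count filter through the group where they are high holds for these as well. Ddx4 and Tdrd5 had fold changes near the upper end of the marker range and Tdrd1 near its lower end. For OC+SM against OC the marker median was 0.25, and none was called. Falls of this size for OC against YC were not confined to oocyte genes: the granulosa marker Esr2 stood at -1.84 and the theca marker Insl3 at -1.68. The median was -0.62 over 8 granulosa markers fitted, -1.36 over 4 theca markers and 0.36 over 6 steroidogenic markers.

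Expressed per 1000 CPM of the summed oocyte markers, Ddx4 averaged 8.88 ± 2.34 in OC+SM, 9.25 ± 6.14 in OC and 9.04 ± 1.95 in YC ovaries (SD, n = 6). The group means lay closer to each other than the spread within any group. Tdrd5 averaged 108 ± 35.5, 98.1 ± 24.4 and 88.3 ± 13.5 in the same order and overlapped between groups. Tdrd1 averaged 12.5 ± 6.16 in OC+SM, 9.82 ± 4.12 in OC and 14.2 ± 4.30 in YC ovaries, again with overlap. Tdrd7 behaved otherwise, at 186 ± 44.8 in OC+SM, 185 ± 38.0 in OC and 52.5 ± 4.71 in YC, with no 40-week library inside the YC range. Tdrkh averaged 22.7 ± 13.3 in OC+SM, 24.0 ± 7.99 in OC and 4.42 ± 0.588 in YC ovaries, likewise without overlap with YC. Because the marker sum was lower in both 40-week groups, a gene at a steady level had to rise on this scale. The separation of Tdrd7 and Tdrkh from YC is therefore no result of its own. These ratios follow from the same counts as the fold changes and are no separate evidence. Other markers moved with the groups as well: summed granulosa markers were 543 to 1225 CPM in OC+SM, 735 to 1154 CPM in OC and 1082 to 1548 CPM in YC, and summed steroidogenic markers 14289 to 16780, 13765 to 15406 and 9205 to 12537 CPM in that order. Summed theca markers were 47.7 to 116 CPM in OC+SM, 46.8 to 87.9 CPM in OC and 127 to 484 CPM in YC, and summed stromal markers 943 to 1263, 941 to 1159 and 1209 to 1593 CPM. No gene of these 4 lists was without counts in any group. Oviduct markers, sought as possible attached tissue, summed to 6.46 to 14.8 CPM in OC+SM, 8.17 to 11.3 CPM in OC and 9.87 to 15.4 CPM in YC. Dnah5 and Pax8 of that list had no count in OC, and Pax8 and Sntn none in YC. Summed immune markers were 86.7 to 102, 85.4 to 113 and 76.1 to 118 CPM in the same order. The part of all these markers in the levels of the 10 genes was not tested.

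**Figure D3:**
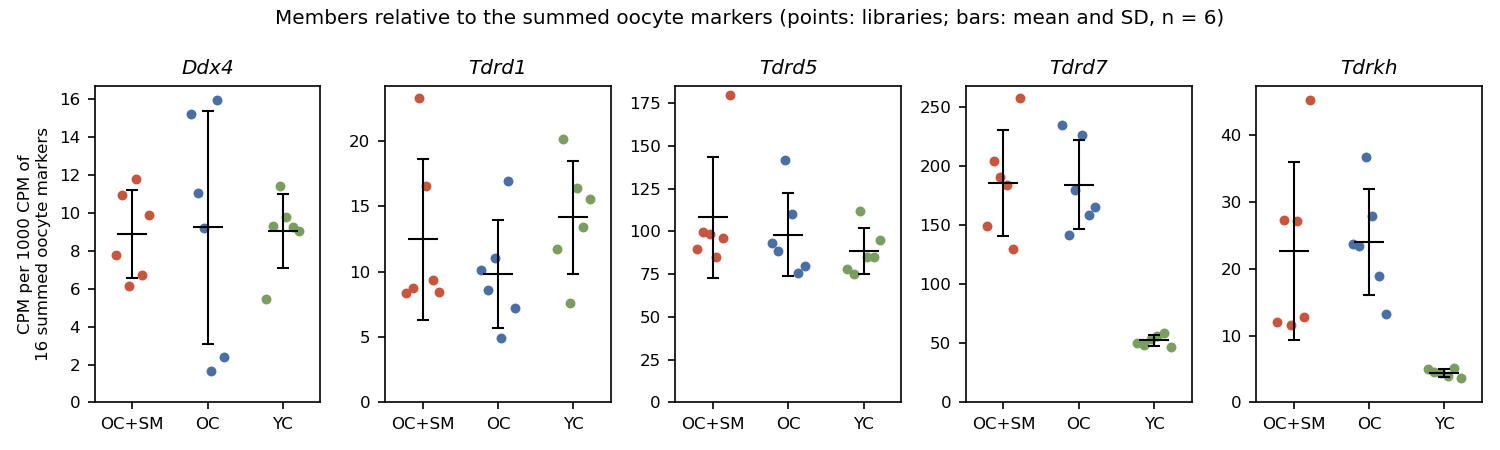
Level of each of the 5 genes fitted per 1000 CPM of 16 summed oocyte markers (y axis), by library, with OC+SM, OC and YC from left to right; bars are the mean and SD of 6. Ddx4, Tdrd1 and Tdrd5 overlap between groups, whereas every OC+SM and OC library lies above every YC library for Tdrd7 and Tdrkh.

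Libraries of 1 group differed among themselves in the same direction for some of these genes and not for others. OC 5 had the highest level of Ddx4, Tdrd1 and Tdrd7 in its group and also the highest summed oocyte markers, 80.5 CPM. OC 4 had the lowest Ddx4 and Tdrd1 and the second lowest marker sum, 48.1 CPM. OC 3, however, had the highest Tdrd5, 6.63 CPM, and the lowest marker sum, 46.8 CPM. In OC+SM, library 6 had the lowest Ddx4, Tdrd1 and marker sum (43.5 CPM) but the highest Tdrkh, 1.97 CPM. The highest Ddx4 of that group was in library 4 and the highest Tdrd1 in library 3, which ranked 4 and 3 from the highest by marker sum (60.9 and 75.0 CPM). Among YC libraries the pattern was mixed as well: YC 3 had the highest Ddx4 and Tdrd5 and the lowest Tdrd1.

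The genes most alike in pattern were sought among 12875 genes with a mean of at least 1 CPM, as those with the smallest root mean square difference in log2 CPM over the 18 libraries after centring each gene. For Ddx4 these were Esrp1 (0.49), Myo5b (0.50), Omt2b (0.51), Cpsf4l (0.51) and Mycl (0.52), against a median of 0.97 over all genes compared. Nearest to Tdrd1 was Eif4e1b, an oocyte form of a cap-binding factor gene, at 0.36. Nearest to Tdrd5 was Ank3 at 0.23, to Tdrd7 Tbc1d25 at 0.11 and to Tdrkh Rbm47 at 0.24. The values share library, depth and group differences, and likeness in level says nothing of shared control.

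Other genes of the pathway came from a list of 27, drawn up by role but with earlier results of these data known. Of these, 25 had an identifier in the tables and 16 could be fitted. For OC against YC 3 of 16 fell and none rose, where 6.03% of all genes were called lower. In all, 15 of 16 values were negative and the median log2 fold change was -0.21, against 0.01 for all genes. Gtsf1, whose product helps PIWI proteins cut their targets, averaged 0.462 ± 0.468 CPM in OC and 1.80 ± 0.481 CPM in YC ovaries (SD, n = 6), a difference of -1.93 ± 0.44 on the log2 scale (edgeR adjusted p = 0.00453). Without OC 5 it was -2.64. The median of Gtsf1 was 8 counts per library in OC+SM, 4 in OC and 20 in YC. The caveat on genes that pass the count filter through the group where they are high therefore holds for Gtsf1. Its values against YC are a description. Tex15, needed for meiotic recombination and for silencing of transposons in male mouse germ cells, averaged 16.3 ± 2.80 CPM in OC and 44.8 ± 8.42 CPM in YC (-1.45 ± 0.21, edgeR adjusted p = 0.000174). All 6 OC libraries lay below all YC libraries. Spocd1, a factor of piRNA-directed DNA methylation in male mouse germ cells, fell less, by 0.80 ± 0.23 on the log2 scale (1.77 ± 0.426 CPM in OC against 3.10 ± 0.50 CPM in YC, n = 6, edgeR adjusted p = 0.0212). All OC libraries lay below all YC libraries, but it missed the threshold without OC 2 (adjusted p = 0.0552) or YC 3 (adjusted p = 0.0538) and with no filter on low counts (adjusted p = 0.0658). Ago2, the slicer of the small interfering and microRNA pathways, had the next smallest p, at -0.19 ± 0.07 (edgeR adjusted p = 0.101). By size of fold change alone, Fkbp6 (-0.82 ± 0.44) and Pld6 (-0.55 ± 0.31) were further from 0, with wide errors, and did not pass (edgeR adjusted p = 0.26 and 0.303).

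Several broadly expressed genes of that list did not pass for OC against YC. Prmt5, the enzyme that methylates the arginines read by Tudor domains, had 0.01 ± 0.10, and its partner Wdr77 had -0.07 ± 0.10. Snd1 and Tdrd3, widely expressed Tudor genes, had -0.06 ± 0.07 and -0.16 ± 0.10. None of these 4 passed (edgeR adjusted p from 0.343 to 0.959). Dicer1, which makes the small interfering RNAs that restrain transposons in mouse oocytes, had -0.22 ± 0.09 (edgeR adjusted p = 0.121), and Mov10 had -0.29 ± 0.15 (edgeR adjusted p = 0.229).

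With Samul-tang 0 of the 16 genes passed (edgeR), and 0 with DESeq2, while 4 had an unadjusted p under 0.05, as did 16.9% of all genes: Mov10 (-0.37 ± 0.15), Tdrd3 (0.22 ± 0.09), Snd1 (0.16 ± 0.07) and Ago2 (-0.15 ± 0.07), with edgeR adjusted p from 0.185 to 0.276. Gtsf1 and Tex15 stood at 0.16 ± 0.47 and 0.11 ± 0.21. For OC+SM against YC, 6 of the 16 fell and none rose, where 10.9% of all genes were called lower. Beside Gtsf1 (-1.77 ± 0.42), Tex15 (-1.34 ± 0.20) and Spocd1 (-0.61 ± 0.22), these were Mov10 (-0.66 ± 0.15), a helicase gene related to Mov10l1 with antiviral roles, Ago2 (-0.34 ± 0.07) and Dicer1 (-0.31 ± 0.09). Their edgeR adjusted p ran from 0.000211 to 0.0462. Spocd1 was the least firm, past the threshold in 11 of 27 alternative settings. This comparison shares its YC libraries with OC against YC and its OC+SM libraries with the Samul-tang comparison. Whether the change in Mov10, Ago2 or Dicer1 was larger in OC+SM than in OC is the Samul-tang contrast itself, which none of them passed.

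**Figure D4:**
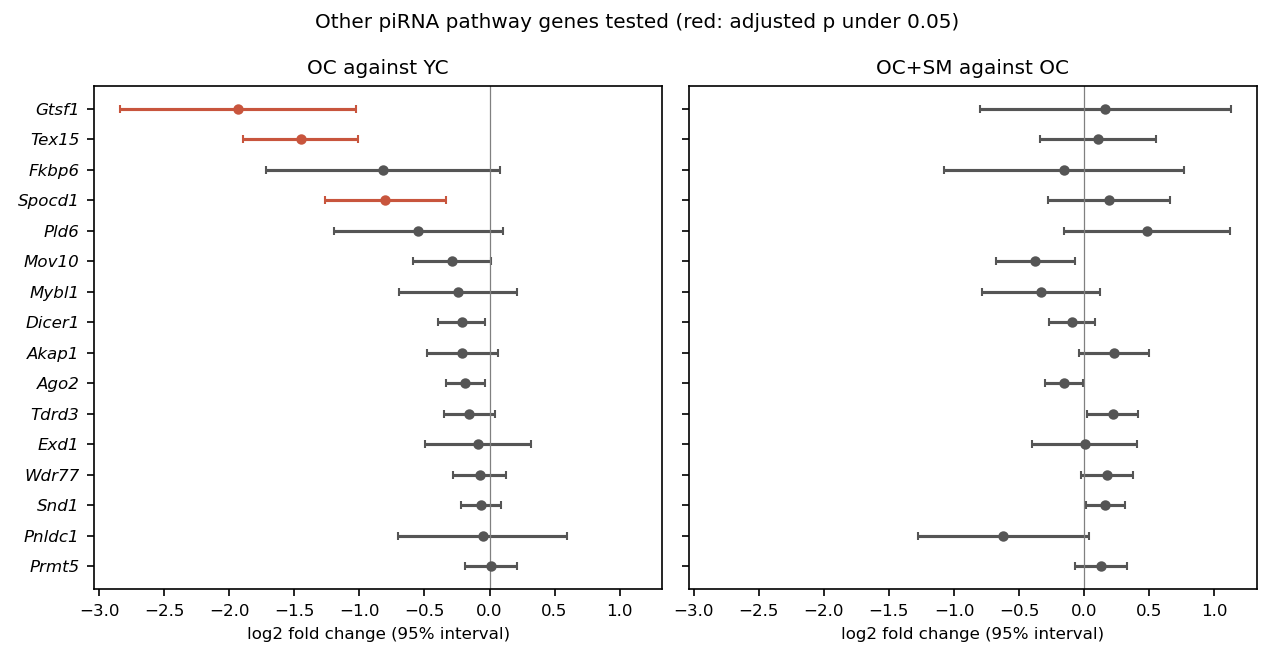
Log2 fold changes with 95% intervals (x axis) of the 16 other piRNA pathway genes that could be fitted, ordered by the first panel, for OC against YC and for OC+SM against OC. Gtsf1, Tex15 and Spocd1 are past the threshold in the first panel (red) and no gene is in the second.

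Genes of this list below the count filter were Piwil1, Piwil4, Asz1, Gpat2, Henmt1, Tdrd12, Rnf17, Stk31 and Btbd18. Piwil1, the PIWI gene of spermatocytes, had 9 counts summed over OC+SM libraries, 2 over OC and 18 over YC. Tdrd12 had 37, 14 and 53 summed counts, Stk31 32, 21 and 63, and Rnf17 25, 33 and 65, in OC+SM, OC and YC. Piwil4, known from nuclear silencing in male germ cells, had 67, 34 and 39 counts in that order, with mean levels of 0.636, 0.471 and 0.520 CPM. Summed counts are not scaled for depth, and the OC+SM libraries were the deepest.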

How the data were processed

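Expression was measured in 18 ovary libraries by 3' tag sequencing. Per the submitters' processing notes, reads were handled with FastQC 1.9, STAR 2.7.9a and RSEM 1.3.3 on GRCm39; annotation and strand setting: not given in the sources used here. The deposited tables hold, per the file headers, RSEM expected counts and TPM (the authors' values per transcript length) for 55416 genes. Expected counts are estimates because RSEM splits shared reads, and they were rounded here. Symbols for 52083 genes were matched by Ensembl identifier.

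Genes were filtered with filterByExpr (16959 kept), scaled by TMM (factors 0.94 to 1.07) and fitted with the edgeR 4.0.16 quasi-likelihood test (two-sided, robust, R 4.3.3), with 18 libraries in 1 fit of 3 group means; the SE was taken from the fold change and its F statistic. Benjamini-Hochberg adjustment covered every gene fitted, with calls under 0.05. CPM uses TMM-scaled library sizes. The code was tested on simulated data. Alternatives used DESeq2 1.42.0, limma 3.58.1 on log2(TPM + 0.5), other filters and scalings, thinning, a replicate block and left-out libraries. No pair of 153 library pairs agreed within sampling noise (lowest chi-square per degree of freedom 4.10).

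The genes, lists and tests were chosen with earlier results of these data known. The naming rule took all 10 genes, every called gene of the second list and its 4 of smallest p, and the nearest genes in pattern; further genes of that list were named after their values were seen. Replicate numbers only name samples here.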

Additional observations from a re-analysis of the deposited data

Results flagged for a closer look

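Over 54 sets of 6 libraries (10 pathway genes and 8 further named genes in 3 groups), 6 held a library whose gap to its nearest neighbour exceeded Dixon's critical share of the range. For normally distributed values, chance flags about 1 in 20 such sets, or 2.7 here. Some sets held few counts and the sets share libraries, so the 6 flags cannot be weighed against that number. Tdrd1 in OC 5 stood at 1.37 CPM, with the next OC library at 0.600 CPM. Gtsf1 was high in that same library, at 1.37 CPM against 0.478 CPM in the next. OC+SM 2 was set apart for Tdrd9, at 0.719 CPM (13 counts) against 0.184 CPM, and for Tdrd6, at 0.276 CPM (5 counts) against 0.0460 CPM. Snd1 was low in OC 2, at 56.0 CPM against 59.9 CPM in the next. Tdrd3 was low in YC 4, at 12.6 CPM against 16.4 CPM in the next.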

How the results depend on the processing

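Over 27 alternatives, Ddx4, Tdrd1 and Tdrd5 stayed lower and past the threshold for OC against YC and for OC+SM against YC. No Samul-tang value of the 5 genes that was tested passed. Ddx4 and Tdrd1 had a Samul-tang value in only 26 alternatives, since neither passed the filter with only the 12 OC+SM and OC libraries. With DESeq2, Ddx4 had no adjusted p for that comparison. The settings reuse the same libraries, and the genes were picked with their counts in view, so they are no separate evidence of a change. The count of the 10 genes past the threshold was 3 or 4 for OC against YC (4 with no filter on low counts, where Mael was added, and without OC 1, OC 3, YC 1, YC 5 or OC+SM 1, 2, 3 or 6), 3 for OC+SM against YC and 0 for OC+SM against OC. Tdrd7 and Tdrkh passed in 0 of the 27, so each added call was a gene below the main count filter. That filter was applied anew when a library was left out. Of 403 values of the 5 genes fitted, 399 moved by less than the spread between replicates. The other 4 were those of Ddx4 (-0.70 and -0.66) and Tdrd1 (-0.76 and -0.66) for OC against YC and OC+SM against YC on log2(TPM + 0.5), where a pseudocount this large beside low values shrinks folds. The spread used was the SD of log2 CPM within groups. Leaving out 1 of 6 libraries can hardly shift a fold change by that much, so the 399 say little about stability. The signs of Ddx4 (-0.26 to 0.37) and Tdrkh (-0.19 to 0.05) for OC+SM against OC differed between settings. The number of genes called for OC+SM against OC, 176, was 45 with only the 12 libraries compared, 483 with YC 3 and OC+SM 6 both left out, 663 with DESeq2 and 32 to 593 without single libraries (32 without OC+SM 3, 593 without OC+SM 4); the cause was not tested. For OC against YC, 1912 genes became 1505 to 2307, and for OC+SM against YC 3795 became 3090 to 4120. With YC 3 and OC+SM 6 left out, OC against YC, OC+SM against OC and OC+SM against YC gave 2193, 483 and 3593 calls among all genes, 3, 0 and 3 among the 10 genes and 4, 0 and 5 among the other pathway genes. Same-numbered replicates did not deviate together (correlations from -0.12 to 0.07; 1 of 6 libraries correlated best with its own number in each comparison). With a replicate block, 1756, 139 and 3535 genes were called in those 3 comparisons and the same 3, 0 and 3 of the 10 genes; Spocd1 lost its call for OC+SM against YC (adjusted p = 0.0728). Depth limits the 5 genes below the count filter, for which the report gives no fold change.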
